A study of Mus musculus with 2 samples.

Results

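The core and naive pluripotency transcription factors Pou5f1, Sox2, Nanog, Sall4, Esrrb, Klf2, Klf4, Klf5, Zfp42 and Prdm14 were examined on 2 microarrays of mouse embryonic stem cells. They are 10 of the 18193 genes named on the array, taken by symbol, in a choice made with earlier results of these data known. Their 16 probe sets, of 45037, are those for which the platform annotation gave 1 of these symbols and no other gene. No further probe set carried a member's symbol together with another gene. Both groups were cells of E14, an established embryonic stem cell line. One group carried a lentiviral short hairpin RNA (shRNA) against Mll2, a histone H3 lysine 4 methyltransferase, and the other a control shRNA. The shRNA cells were infected for 24 h and then kept in puromycin for 5 days before total RNA was taken. The sources used here give neither the shRNA sequence nor whether the surviving cells were a pool or a clone. Each group had 1 array. No value below therefore has a replicate error, and the groups were compared without a test or a p-value.

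Pou5f1 (Oct4), a POU-domain protein, and Sox2, an HMG-box protein, bind joint DNA elements and together with the homeodomain protein Nanog form the core circuit that keeps embryonic stem cells pluripotent. Sall4, a zinc-finger protein, works with this circuit and restrains extraembryonic fates. Esrrb, Klf2, Klf4, Klf5, Zfp42 (Rex1) and Prdm14 mark the naive state of the preimplantation epiblast and decline as cells pass towards the primed, postimplantation state. The factors regulate each other's genes and their own.

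The promoters of the core trio and of Klf4, the naive factor that differed alike in both of its probe sets, are shown with motif letters marked. Regulatory DNA outside these windows was not examined. RefSeq promoter windows of 300 bases, from 250 before to 50 after the gene start, were at hand for 7 of the 10 members, in 10 windows. They are printed 5′ to 3′ along the gene on build GRCm38.p6. Capitals mark exact matches, on either strand, to ATGCAAA (most of the octamer bound by POU factors), ACAATG (a Sox core site) and GGGCGGG (known as the GC box, which Klf and Sp proteins bind).
Nanog, chr6:122707239-122707538, plus strand: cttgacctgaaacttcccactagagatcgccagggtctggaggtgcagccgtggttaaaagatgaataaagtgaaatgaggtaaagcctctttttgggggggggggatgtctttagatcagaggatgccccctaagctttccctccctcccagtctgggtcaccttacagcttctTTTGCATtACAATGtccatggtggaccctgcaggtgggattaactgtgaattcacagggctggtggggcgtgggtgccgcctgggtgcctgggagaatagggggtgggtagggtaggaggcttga
Pou5f1, chr17:35505782-35506081, plus strand: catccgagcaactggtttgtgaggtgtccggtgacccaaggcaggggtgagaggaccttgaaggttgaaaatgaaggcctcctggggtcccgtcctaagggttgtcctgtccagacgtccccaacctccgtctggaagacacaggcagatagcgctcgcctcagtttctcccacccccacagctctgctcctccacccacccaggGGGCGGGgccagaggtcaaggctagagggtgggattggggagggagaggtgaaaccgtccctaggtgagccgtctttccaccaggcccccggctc
Sox2, chr3:34649745-34650044, plus strand: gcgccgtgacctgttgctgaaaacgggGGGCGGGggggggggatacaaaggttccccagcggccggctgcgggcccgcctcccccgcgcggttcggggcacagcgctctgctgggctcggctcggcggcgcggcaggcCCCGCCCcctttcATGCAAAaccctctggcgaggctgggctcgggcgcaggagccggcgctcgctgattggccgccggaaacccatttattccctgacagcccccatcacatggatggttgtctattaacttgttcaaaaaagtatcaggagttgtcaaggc
Klf4, chr4:55532426-55532725, minus strand: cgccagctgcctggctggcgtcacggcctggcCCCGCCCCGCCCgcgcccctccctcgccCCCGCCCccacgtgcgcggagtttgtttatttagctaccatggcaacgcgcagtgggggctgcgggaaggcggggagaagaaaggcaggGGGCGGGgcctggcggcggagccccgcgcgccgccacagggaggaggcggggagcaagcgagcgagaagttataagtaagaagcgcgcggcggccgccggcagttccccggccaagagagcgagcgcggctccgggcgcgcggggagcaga

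In the Nanog window an octamer-type match and a Sox match lay 1 base apart, beginning 75 and 67 bases before the gene start. This is the arrangement of the joint element through which Oct4 and Sox2 are known to act on Nanog. Both motifs with at most 3 bases between them occurred in 6 of 32851 promoter windows, or 0.0183%, and Nanog was the only member among them, in both of its overlapping windows. Alone, ATGCAAA occurred in 4.63% of all windows and in the windows of 3 members (Sox2, Nanog and Zfp42). ACAATG occurred in 12.6% of all windows and in those of 3 members (Nanog, Esrrb and Pou5f1), for Pou5f1 in its second window. GGGCGGG occurred in 25.6% of all windows and in those of 5 members, with 4 matches in Klf4, of which the first 2 overlap. A match describes letters in the window, and binding was not measured.

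As a check of the labels, Kmt2d, 1 of the 2 mouse genes that have been called Mll2, read 335 with the Mll2 shRNA and 736 with the control shRNA, a log2 ratio of -1.14. The other gene, Kmt2b, was at 852 and 901 (log2 ratio -0.08). The labels do not say which of them the shRNA was aimed at. The deposited values were MAS5 signals on the log2 scale, which weigh matching against mismatching probes. Ratios are Mll2 shRNA minus control shRNA on that scale. The floor for a usable signal was 64.7, and 11805 genes had a probe set above it on at least 1 array. The "spread" beside a ratio is the median absolute deviation, scaled to match an SD, of ratios among the 500 genes of most similar signal. It includes true differences besides noise and says nothing of variation between cultures. Signals of different probe sets cannot be set against each other, since each has its own probes.

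The core trio went in 3 directions. Pou5f1 was lower in the Mll2 shRNA array, Nanog was higher, and Sox2 was nearly level. Pou5f1, the POU factor without which the inner cell mass turns to trophectoderm, had a signal of 6975 with the Mll2 shRNA and 9467 with the control shRNA (1417945_at). This was 1.36-fold lower, a log2 ratio of -0.44 beside a spread of 0.19. Nanog, which protects embryonic stem cells from differentiation when LIF is limiting, had a signal of 6864 against 4949.9 (1429388_at). It was 1.39-fold higher, with a log2 ratio of 0.47 and a spread of 0.20. Nanog has processed pseudogenes in the mouse genome, and whether this probe set also detects them was not tested. Sox2, the partner of Oct4 on joint elements, had a signal of 12755 against 12125 (1416967_at), a log2 ratio of 0.07 that is smaller than its spread of 0.18. All 3 genes had 1 probe set each, so none of these ratios has a second reading. In RNA of whole cultures, a change in the share of cells that express a gene and a change in RNA per cell cannot be told apart.

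Sall4 gave 2 different readings. Its brighter probe set, 1424152_at, had a signal of 7376 with the Mll2 shRNA and 11010.4 with the control shRNA, 1.49-fold lower (log2 ratio -0.58, spread 0.19). The dimmer one, 1424153_s_at, read 448 against 402, a log2 ratio of 0.15 with a spread of 0.33. The suffix _s_at marks probes shared by several transcripts. The 2 ratios averaged -0.21 ± 0.52 (SD over 2 probe sets), so the direction of Sall4 rests on the brighter probe set.

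**Figure D1:**
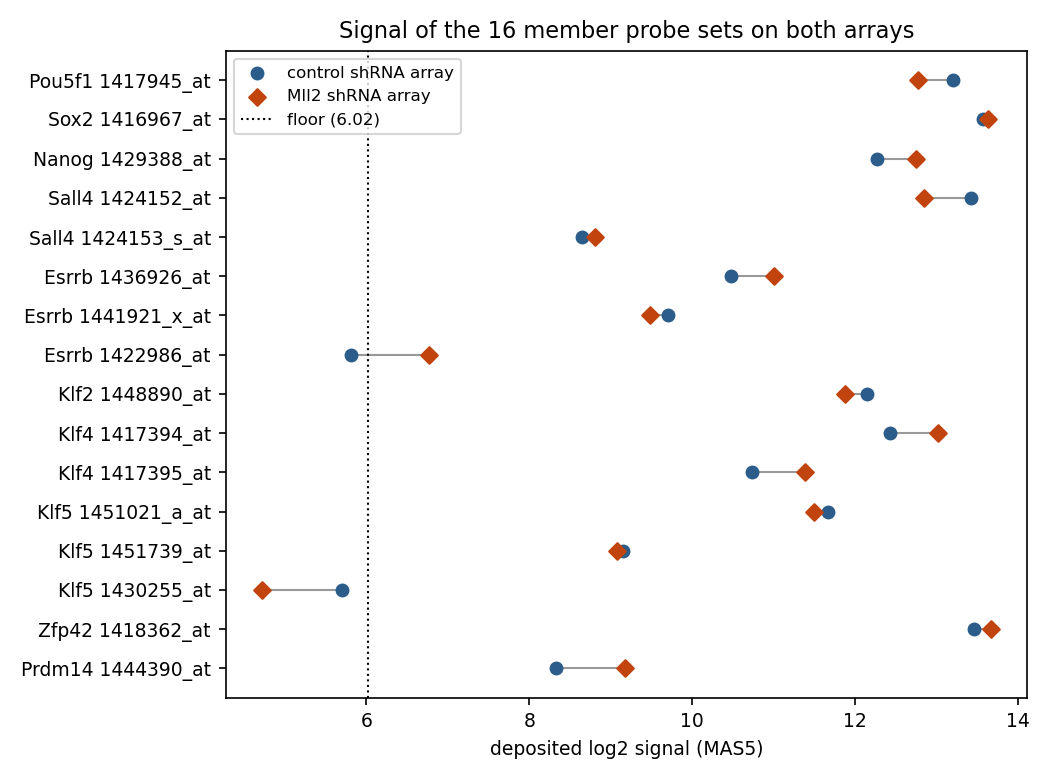
Deposited log2 signal of each of the 16 member probe sets in the Mll2 shRNA array (diamonds) and the control shRNA array (circles), with the floor as a dotted line. The paired points lie closest together for Sox2 and Klf5 1451739_at, and only Klf5 1430255_at lies under the floor on both arrays.

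Of the naive factors, Prdm14, Klf4, Esrrb and Zfp42 were higher in the Mll2 shRNA array and Klf2 and Klf5 were lower, each in its brightest probe set. Prdm14, a PR-domain protein that represses FGF signalling and DNA methylation genes in naive cells, had the largest difference of the 10 members. Its signal was 577 against 321 in the control array (1444390_at), 1.80-fold higher, with a log2 ratio of 0.85 and a spread of 0.34. It had no second probe set.

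Klf4, a zinc-finger factor downstream of LIF and STAT3, was higher in both of its probe sets. The signal of 1417394_at was 8299 against 5496, 1.51-fold higher (log2 ratio 0.59, spread 0.20). The second probe set, 1417395_at, read 2677 against 1709, 1.57-fold higher (log2 ratio 0.65, spread 0.30). The mean of 0.62 ± 0.04 (SD over 2 probe sets) had the smallest SD among the 4 members with at least 2 probe sets over the floor in each array. Both probe sets were read on the same arrays, so the SD does not measure error between cultures.

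Klf2 and Klf5, which share much of their genomic binding with Klf4 in embryonic stem cells, had lower signals with the Mll2 shRNA. Klf2 read 3764 against 4533 in the control array (1448890_at), a log2 ratio of -0.27 beside a spread of 0.22. Klf5 read 2893 against 3267 in 1451021_a_at (log2 ratio -0.18, spread 0.22) and 540.5 against 568 in 1451739_at (log2 ratio -0.07, spread 0.33). Both Klf5 ratios were smaller than their spreads, and the second became 0.05 when the arrays were scaled on their spike-in controls. The third Klf5 probe set, 1430255_at, read 26.3 and 51.9, under the floor on both arrays, and gave no ratio.

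Esrrb, an orphan nuclear receptor that sustains self-renewal downstream of GSK3 inhibition and Tcf7l1, had 3 probe sets that did not go the same way. The brightest, 1436926_at, had a signal of 2060.5 against 1422, 1.45-fold higher (log2 ratio 0.53, spread 0.26). A second, 1422986_at, read 109 against 56.1 in the control array, where it was under the floor, so that it was at least 1.68-fold higher. The third, 1441921_x_at, read 715 against 835, a log2 ratio of -0.22 within its spread of 0.28. The suffix _x_at marks probes that may bind other transcripts. The brightest and the third, which both cleared the floor in each array, averaged 0.16 ± 0.54 (SD over 2 probe sets), and with the bound included the mean was 0.35.

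Zfp42, a zinc-finger gene related to Yy1 and used as a reporter of the naive state, had a signal of 13022 against 11276 (1418362_at). Its log2 ratio of 0.21 was only just above the spread of 0.18.

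**Figure D2:**
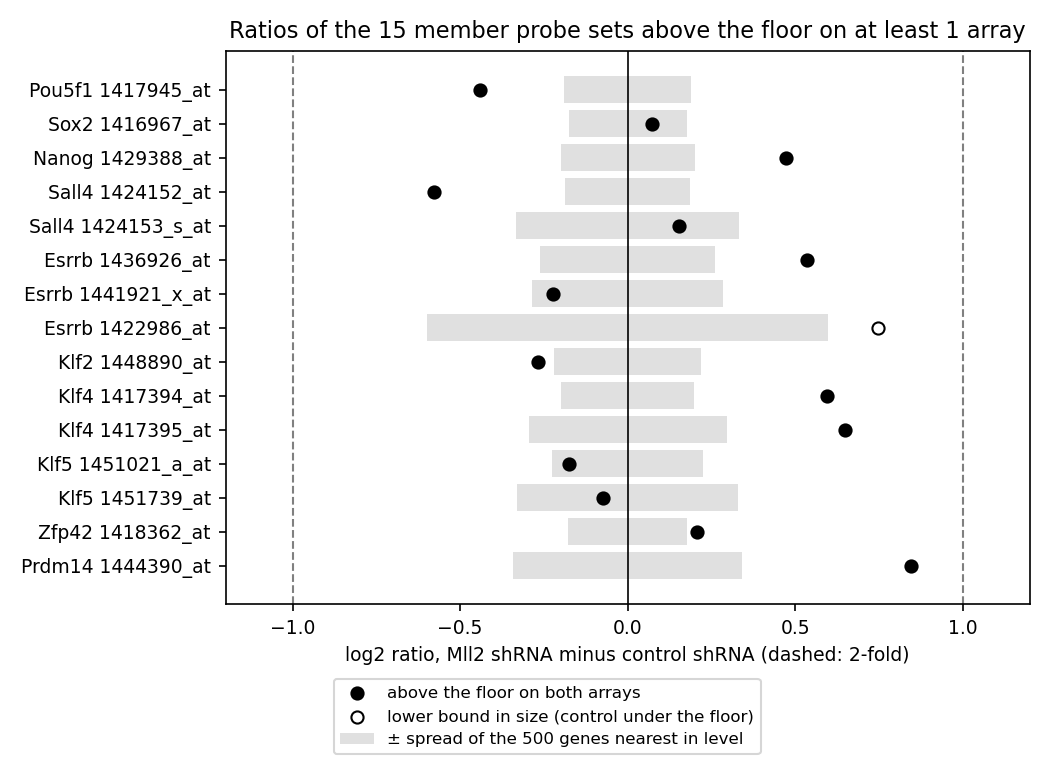
Log2 ratio (Mll2 shRNA minus control shRNA) of the 15 member probe sets above the floor on at least 1 array, with grey bars for plus and minus the spread of the 500 genes nearest in signal. No point reaches the dashed 2-fold lines, both Klf4 points lie to the right, and the points of Sall4 and of Esrrb fall on both sides of 0.

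None of the 10 members was 2-fold apart, where 2.45% of all measured genes were, 1.47% higher and 0.983% lower. At 1.5-fold, Klf4 and Prdm14 were higher and no member was lower, beside 12.1% of all measured genes in either direction, 7.4% higher and 4.68% lower. With spike-in scaling Esrrb and Nanog also passed 1.5-fold, 4 members in all, and 11.6% of measured genes were then higher. In the brightest probe set of each gene, ratios larger in size than the spread at their level were found for 8 members and 33.4% of measured genes. The exceptions were Sox2 and Klf5. Zfp42 and Klf2 were only 1.16 and 1.23 times their spreads, and spike-in scaling put Klf2 at -0.15, inside its spread of 0.22. The dimmer Sall4 probe set (0.15, spread 0.33) and Esrrb 1441921_x_at (-0.22, spread 0.28) were within theirs. The members ran from -0.58 (Sall4) to 0.85 (Prdm14), with 6 above 0, 4 below 0 and a median of 0.14. The median of all measured genes was 0.03, and 53.5% of them were above 0. The counts above and below 0 given further on for other lists are to be read beside this share. The 4 core genes had a median of -0.18 and the 6 naive factors one of 0.37, but both groups held genes of either sign.

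Differences between 2 members are free of any factor that scales a whole array. The Nanog ratio exceeded that of Pou5f1 by 0.91 on the log2 scale, a 1.88-fold change of one relative to the other, and this difference was between 0.90 and 0.91 under all 5 scalings. Sox2 exceeded its partner Pou5f1 by 0.51 (0.51 to 0.54). Among the Klf factors, Klf4 exceeded Klf2 by 0.86 (0.86 to 0.90) and Klf5 by 0.77 (0.77 to 0.81), whereas Klf2 and Klf5 differed by only -0.09 (-0.10 to -0.08). Zfp42, a textbook companion of Oct4 in pluripotent cells, exceeded Pou5f1 by 0.65 (0.65 to 0.68). These are differences of single readings and have no replicate error.

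**Figure D3:**
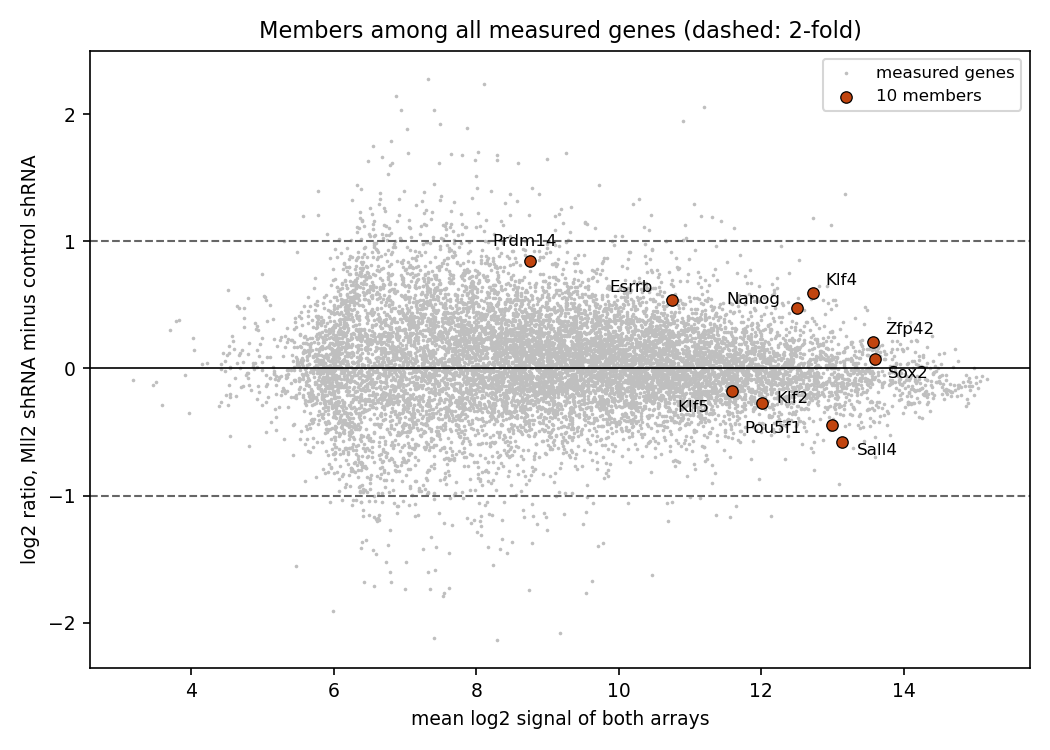
Log2 ratio (Mll2 shRNA minus control shRNA) against the mean log2 signal of both arrays for 11805 measured genes (grey) and the 10 members (coloured), 1 probe set a gene, with dashed lines at 2-fold. All members lie inside the 2-fold lines, with Sall4 lowest and Prdm14 highest.

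The repeatability of a ratio within a gene was read from genes with several probe sets. Across 4713 genes with at least 2 probe sets that cleared the floor in each array, the 2 brightest differed in ratio with an SD of 0.37 and by 0.21 at the median, and had the same sign in 66.1%. The Klf4 probe sets differed by 0.05 and those of Klf5 by 0.10. The probe sets of Sall4 differed by 0.73 and those of Esrrb by 0.76, and only 5.86% and 5.11% of these genes had a wider gap. The cause of the wide gaps was not tested. For scale only, the ratios of Pou5f1, Nanog and Prdm14, read by 1 probe set each, were larger than the SD of 0.37, whereas those of Sox2, Klf2 and Zfp42 were smaller. That SD is of a difference and holds the scatter of 2 ratios, so it is not the error of 1 ratio. It pools genes of all signal levels and leaves out variation that both probe sets of a gene share.

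No member changed sign under any of the 10 alternatives for scaling, floor, pseudocount or choice of probe set. Some of these could not have moved a member. Another floor or none left every member's ratio as it was, and averaging cannot alter a member with 1 probe set. Such settings are no check of those ratios. Scaling on the bacterial spike-in controls raised all genes together, moving the median of all measured genes by 0.11, so members are best read relative to it. Over all settings the Pou5f1 ratio ran from -0.44 to -0.32, that of Nanog from 0.47 to 0.59, that of Klf4 from 0.59 to 0.71, and that of Prdm14 from 0.73 to 0.96. Klf5 came nearest to 0, at -0.06 with spike-in scaling. Sall4 moved most, to -0.21 when its probe sets were averaged.

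**Figure D4:**
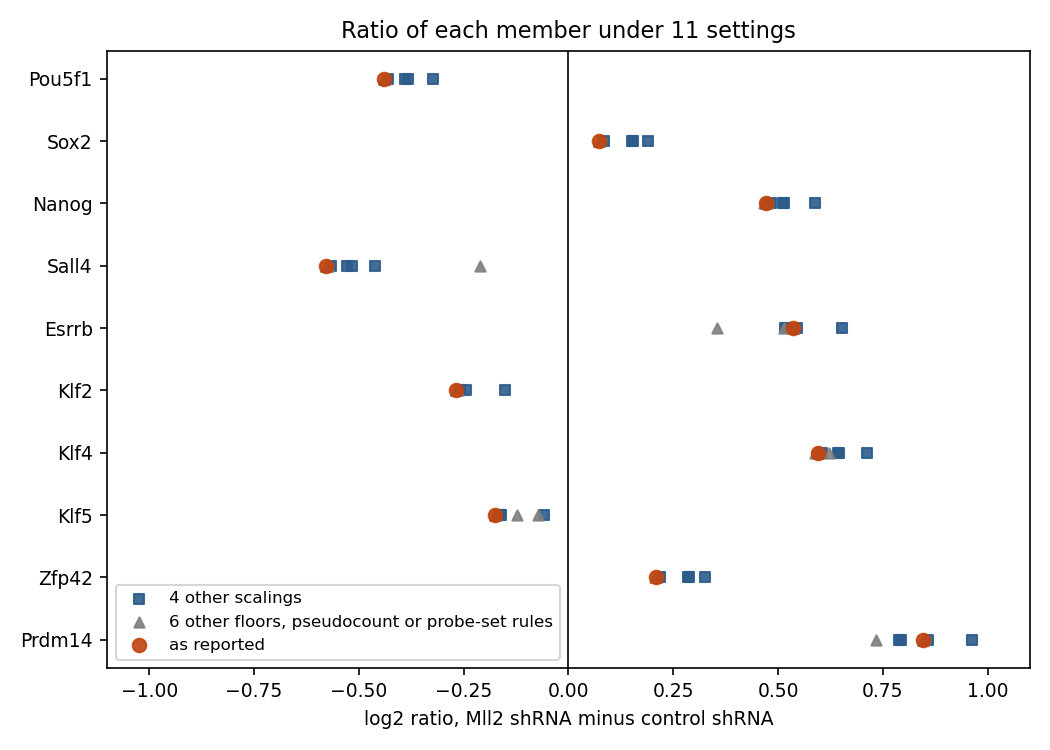
Log2 ratio (Mll2 shRNA minus control shRNA) of each member as reported (circles), under 4 other scalings (squares) and under 6 other floors, pseudocount or probe-set rules (triangles). No member crosses 0, and Sall4 and Esrrb move most towards it when probe sets are averaged.

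Other transcription factors of the same network showed no common direction. Of 20 listed, 18 were measured, none was 2-fold apart, and 10 were above 0 and 8 below, with a median of 0.10. With quantile normalization the split was 9 and 9, and with spike-in scaling 13 and 5. Sall1, a paralog of Sall4, was the highest, with a signal of 2888 against 1708, a log2 ratio of 0.76 and 0.93 in its second probe set. Mycn, a Myc-family factor, was at 0.33, but at -0.16 in its second probe set. The lowest were Myc at -0.59 and Tcf7l1 at -0.50, with -0.38 in its second probe set. Tcf7l1 is known to repress Nanog and Esrrb in embryonic stem cells.

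Genes known as targets or companions of the core were mostly lower. Of 18 measured of 20, 15 were below 0 and 3 above, with a median of -0.23, where 53.5% of all measured genes were above 0. That share covers genes of all signal levels, not only genes as bright as many of these. With loess 13 were below 0 and the median was -0.18. With spike-in scaling 12 were below 0 and the median was -0.12. Dppa3 (Stella), a maternal and germline factor, was the only one 2-fold apart. Its signal was 195 against 431 in the control array, 2.21-fold lower (log2 ratio -1.14, spread 0.39). Lin28a, which blocks maturation of let-7, read 1868 against 3481, a log2 ratio of -0.90, with -0.65 in its second probe set. The highest were the Nodal antagonist gene Lefty1, at 0.16, and the TGF-beta family gene Gdf3, at 0.13, both within their spreads of 0.23 and 0.30. The list shares genes with pluripotency lists already examined in these data, so its direction is not independent evidence.

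Members were set beside their paralogs. In the SoxB1 group, Sox2 at 0.07 stood between Sox1, a neural gene that was 2.51-fold higher (286 against 114, log2 ratio 1.33), and Sox3 at -0.89 (211 against 390). In the Sall family, Sall3 was 2.16-fold higher (337 against 156, log2 ratio 1.11) in its brighter probe set but at -0.15 in the other, and Sall1 was higher in both of its own. Sall4 was at -0.58 in its brighter probe set and at 0.15 in the other. Among POU genes, Pou3f1 (Oct6), a gene of the primed epiblast, was 2.08-fold lower (777 against 1618, log2 ratio -1.06), with -0.75 in its second probe set. The 10 measured Klf paralogs ran from -0.12 to 0.48 in their brightest probe sets, beside Klf4 at 0.59. Their other probe sets reached further, up to 0.83 for Klf12. In all, 29 of 48 paralogs were measured, 19 above 0 and 10 below, with a median of 0.14 that was 0.04 without a floor, and spike-in scaling made the split 22 and 7 and took Pou3f1 inside 2-fold.

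The factors of the primed state were all below 0, in contrast to the mixed signs of the naive members. The 12 measured genes had a median of -0.56, which stayed between -0.60 and -0.44 under the 5 scalings. Dnmt3a, a de novo DNA methyltransferase, was 2.62-fold lower (518 against 1360.1, log2 ratio -1.39) in its brightest probe set, and its 4 other probe sets ran from -0.90 to 0.38. Pou3f1 was also 2-fold lower. Sox11 and Cldn6 were nearest to 0, at -0.17 and -0.20, and another probe set of Sox11 was at 0.05. Both genes were within their spreads of 0.27 and 0.33, as were Fgf5 and Sall2 within theirs. The difference between the naive and the primed genes was not tested, since each rests on the same 2 arrays. The primed list was chosen with earlier results of these data known, so its direction is not independent evidence. Pou3f1, Sox3 and Sall2 also belong to the list of paralogs.

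**Figure D5:**
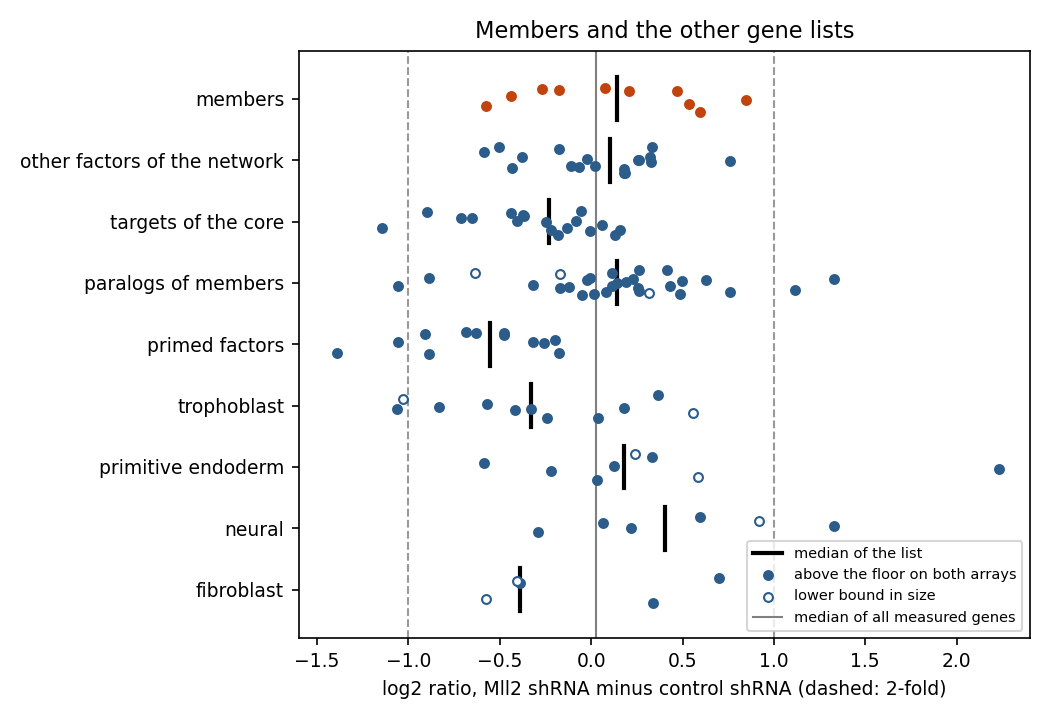
Log2 ratio (Mll2 shRNA minus control shRNA) of every measured gene of 9 lists, members included, with open circles for lower bounds in size, black bars for list medians and a grey line for the median of all measured genes. The members spread to both sides of 0, and every primed factor lies below 0.

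The embryonic stem cell state given by the labels was set beside markers of other cell types, which cannot tell E14 from another embryonic stem cell line. All 10 members had signals far above the floor of 64.7 on both arrays, each in its brightest probe set, the lowest being Prdm14 at 321 in the control array. Trophoblast markers, a fate that Oct4 restrains, had a median of -0.33 over 11 measured of 13, with 4 above 0 and 7 below. The median was -0.12 without the suffixed probe sets. Their summed signal was 22650.0 with the Mll2 shRNA and 31207 with the control shRNA. This sum and those of the lists below used the same probe sets on each array, with genes under the floor included. Bright probe sets weigh most in a sum, which gives no relative amounts of the genes. Most of the trophoblast sum came from the keratin genes Krt8 and Krt18, named here after their values were seen, and the 11 others summed to 2333 and 2733. Plet1 was 2.09-fold lower (log2 ratio -1.06) and Ascl2 at least 2.05-fold lower, both near the floor and both inside 2-fold with spike-in scaling. The second Ascl2 probe set gave a bound of -0.12. Krt7, a keratin gene, was at -0.84, and the highest with both signals above the floor were Gata3 at 0.37 and Eomes at 0.18, with -0.92 in the second Eomes probe set. Elf5 and Tpbpa were under the floor on both arrays.

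Primitive endoderm markers, a fate that Nanog restrains, had a median of 0.18 over 8 measured of 12, with 6 above 0 and 2 below. The median became -0.05 with the floor at the 70th percentile. Summed signals of these markers were 6518 and 6303. Foxa2, also a gene of definitive endoderm and axial mesoderm, was 4.71-fold higher (601 against 128, log2 ratio 2.23). Lama1 was at 0.33, Lamb1 at -0.22 and Dab2 at -0.59, and Gata4, Pdgfra, Hnf4a and Afp were under the floor on both arrays. Neural markers had a median of 0.41 over 6 measured of 10, with 5 above 0 and 1 below, and summed signals of 2067 and 1709. That median was 0.14 with the mean over probe sets, 0.20 under the 70th-percentile floor, and 0.22 under the 30th-percentile one, with none or without suffixed probe sets. Among them were Sox1 at 1.33, Map2 at 0.59 with a bound of -0.35 in its second probe set, Pax6 at 0.06 and Nes at -0.29. Of the fibroblast markers only 5 of 11 were measured, 2 above 0 and 3 below, with summed signals of 897 and 916. Col1a2 was at 0.70, Col3a1 at 0.34 and Pdgfrb at -0.39, each with both signals below 301, and Thy1, Dcn, Lum, Postn, Fap and Twist2 were under the floor on both arrays. The part of other cell types in the members' ratios was not tested.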

How the data were processed

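The authors deposited log2 values of 45101 probe sets for each of 2 Affymetrix 3' arrays, 1 per group, made with MAS5 per the submitters' processing notes. Neither its version nor a genome build is given in the sources used here. On the linear scale the deposited log2 signals averaged 500.0 on each array after 2% was trimmed from either end. Detection calls were not used here.

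The 64 control probe sets were set aside. Names came from the platform annotation, updated to RefSeq GRCm38.p6 symbols through the Entrez number for 34741 of 34945 probe sets with 1 symbol. The floor was the 50th percentile of all values, 6.02. A gene was represented by its probe set with the highest mean, and a ratio with 1 array under the floor is a lower bound in size. No test was run. Having 1 array per group limits the precision.

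The members and gene lists were chosen with earlier results of these data known. All members were named, and of each other list the 2 highest and 2 lowest ratios above the floor on both arrays and any gene 2-fold apart. The steps were run on simulated data with planted differences larger than those of the members and equal noise at every signal level. That run does not measure the precision of the ratios given here. Python 3.11.15, numpy 2.4.6, pandas 2.3.3, R 4.3.3 and limma 3.58.1 (loess, span 0.3) were used.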

Additional observations from a re-analysis of the deposited data

How the results depend on the processing

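No paired analysis was possible because each group had 1 array. The alternatives were median centring, quantile normalization, loess, spike-in scaling (18 probe sets, mean difference -0.12), a floor at the 30th percentile, one at the 70th or none, the floor added as a pseudocount, averaging of probe sets, and leaving out those with suffixes. A value was taken to have moved if it shifted by more than the spread at its level or, for a list, the spread over its genes. Of 100 member values 99 moved by less than this, and none changed sign. They include values that could not move, such as all those under another floor or none, so the count overstates stability. The exception was Sall4 at -0.21 with the mean over probe sets. Klf5 probe set 1451739_at changed sign to 0.045 with spike-in scaling. No member was 2-fold apart under any of these settings or at a threshold of 3-fold, and 2 were apart at a threshold of 1.5-fold. Combined with the other scalings, a choice made after seeing the data, the 1.5-fold threshold gave 2 members with median centring, quantile normalization or loess and 4 with spike-in scaling. With the floor at the 70th percentile, which leaves fewer genes measured, the median ratio of the primitive endoderm markers became -0.049 and that of the fibroblast markers, -0.39 as reported, became 0.27. With dim probe sets near the floor, a difference was not detectable for genes under it on both arrays.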
